A study of Mus musculus with 6 samples.

Results

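Clastokines are factors that osteoclasts release or carry on their surface and that act on osteoblasts and vessels, and together with a few receptors they link bone resorption to bone formation. The 10 genes described here (Pdgfb, Kdr, Calcr, Sema4d, Sphk1, Cthrc1, Efnb2, Spp1, Igf1 and Bmp2) were taken by symbol from the 23504 genes of the table, and all 10 were listed. RNA-seq was performed on bone marrow–derived macrophages (BMMs), which become osteoclasts when RANKL is given. The BMMs came from male C57BL/6 mice of 6 to 8 weeks. DASA-58, a small molecule that activates the glycolytic enzyme PKM2, was given for 3 days to the cells of 3 libraries, and DMSO, its solvent, to those of another 3. According to the study both groups received RANKL, although its methods name RANKL only for the treated cells, and neither the concentration of DASA-58 in these cultures nor the use of separate animals for the replicates is given in the sources used here. The p-values therefore measure the spread between these libraries, which may be technical.

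Bone is remodeled in steps, in which osteoclasts remove matrix and osteoblasts refill the same site. Preosteoclasts secrete the PDGF-B dimer, which draws mesenchymal progenitors and vessels to the site, whereas mature osteoclasts carry the calcitonin receptor, through which calcitonin halts resorption. Semaphorin 4D and ephrin-B2 sit on the osteoclast surface and signal to plexin-B1 and EphB4 on osteoblasts, the former restraining and the latter favoring their differentiation. Sphingosine-1-phosphate (made by the kinase Sphk1), Cthrc1, IGF-1 and BMP-2 act as soluble signals to osteoblasts, and osteopontin (Spp1) is a matrix protein to which osteoclasts adhere.

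Sequences at a transcription start of 4 of these genes are shown because they stand for the genes that were lower (Calcr, Kdr and Spp1) and the gene that was higher (Igf1) with DASA-58. Each runs 5′ to 3′ on the strand of the gene, from 250 bases before a RefSeq transcription start to 50 bases after it (build GRCm38.p6). The table of RefSeq starts held 15 windows for 7 of the 10 genes and none for Pdgfb, Bmp2 and Cthrc1. The gene annotation starts Igf1 at 87858265 on chromosome 10, so its only window, from 87860861, lies inside the gene.
Calcr, chr6:3764664-3764963, minus strand: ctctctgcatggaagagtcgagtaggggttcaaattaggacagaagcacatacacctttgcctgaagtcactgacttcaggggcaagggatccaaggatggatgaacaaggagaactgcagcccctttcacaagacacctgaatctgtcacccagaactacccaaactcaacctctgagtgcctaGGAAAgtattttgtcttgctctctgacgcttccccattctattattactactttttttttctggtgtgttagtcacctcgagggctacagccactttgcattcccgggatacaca
Kdr, chr5:75978406-75978705, minus strand: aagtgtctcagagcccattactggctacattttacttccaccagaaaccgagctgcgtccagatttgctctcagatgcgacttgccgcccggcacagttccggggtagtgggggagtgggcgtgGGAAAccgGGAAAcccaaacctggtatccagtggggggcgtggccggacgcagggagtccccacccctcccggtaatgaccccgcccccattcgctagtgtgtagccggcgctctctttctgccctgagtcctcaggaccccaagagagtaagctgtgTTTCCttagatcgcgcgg
Spp1, chr5:104434861-104435160, plus strand: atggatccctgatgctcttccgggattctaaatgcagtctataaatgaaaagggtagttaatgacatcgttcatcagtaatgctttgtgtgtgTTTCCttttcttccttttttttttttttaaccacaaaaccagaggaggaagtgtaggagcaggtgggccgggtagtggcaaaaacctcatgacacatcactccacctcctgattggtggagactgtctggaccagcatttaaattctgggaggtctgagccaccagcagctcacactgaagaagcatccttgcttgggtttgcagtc
Igf1, chr10:87860861-87861160, plus strand: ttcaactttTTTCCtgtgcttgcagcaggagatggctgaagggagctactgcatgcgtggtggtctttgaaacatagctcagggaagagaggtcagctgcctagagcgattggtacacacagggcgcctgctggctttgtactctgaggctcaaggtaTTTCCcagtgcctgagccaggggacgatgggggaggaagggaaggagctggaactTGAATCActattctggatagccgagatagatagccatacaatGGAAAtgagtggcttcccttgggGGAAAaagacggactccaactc
Capitals mark matches to TGANTCA, where N is any base, used here as the AP-1 motif, or to the NFAT core GGAAA. Both were searched on both strands, so that TTTCC is the core on the other strand. AP-1 and NFATc1 are transcription factors that drive osteoclast genes. The Calcr window held 1 NFAT core, the Kdr window 3, the Spp1 window 1 and the Igf1 window 4, and the Igf1 window also held 1 AP-1 motif (TGAATCA), with no match overlapping another. AP-1 matches also occurred in windows not shown, of Sphk1 and Sema4d, which were lower with DASA-58. The overlapping Sphk1 windows from 116531587 and from 116531661 held 1 each, at the same site, and the Sema4d window from 51748761 held 1. Calcr and Spp1 each had a second window in the table, of which the one farther upstream is shown, and the other Calcr window held 0 NFAT cores and the other Spp1 window 2. Of 32851 windows of all genes, 61.3% held an NFAT core and 7.81% an AP-1 motif. A match is a run of letters, and binding was not measured.

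The levels are given as FPKM, fragments scaled by gene length and by the fragments of the library, which allows comparison between genes of different length. The recovered depth was 18191560 to 18968556 fragments per library, and a count of 0 allows 3 fragments, which is 0.158 to 0.165 FPKM on a gene of 1 kilobase (counting error only). As a check of the cell type, all 10 osteoclast markers (such as Acp5 and Ctsk) and all 10 macrophage markers (such as Csf1r and Adgre1) had a mean of at least 1 FPKM. Genes whose mean over the 6 libraries reached 1 FPKM were compared with limma on log2(FPKM + 1), a scale on which the change of low genes is understated. For genes below that level, whole fragments were recovered from the FPKM steps and compared with limma's voom, for genes with a mean of at least 10 fragments.

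Most of these genes were lower with DASA-58. By their mean FPKM, Calcr was at 33.7% of DMSO, Sphk1 at 53.3%, Kdr at 61.1%, Pdgfb at 69.1%, Spp1 at 82.3% and Sema4d at 84.7%. Igf1 was at 137%, and Cthrc1, Efnb2 and Bmp2, at 114%, 98.3% and 96.7%, had libraries of the groups that overlapped. Pdgfb, Sema4d, Spp1, Igf1 and Bmp2 passed the filter, and limma (Benjamini-Hochberg adjustment over the 10965 genes tested, calls at an adjusted p under 0.05) called 3 of these 5 lower and 1 higher (Igf1), leaving Bmp2 uncalled, where 7.28% of all genes tested were lower and 4.24% were higher. None of the 5 changed by more than 1 on the log2 scale in this fit, and 0.0456% of all genes tested did so at an adjusted p under 0.05. Without overlap between the groups, 3 of the 5 were lower and 1 was higher, where 21.6% and 11.8% of the genes tested were. On the recovered fragments all 10 genes could be compared, and 6 were lower (Calcr, Sphk1, Kdr, Pdgfb, Spp1 and Sema4d) and 1 was higher (Igf1), where 9.99% of 13218 genes were lower and 5.58% higher. For the same 6 genes the highest DASA-58 library lay below the lowest DMSO library, and for Igf1 the reverse held, which was the case for 19.7% and 11.2% of these genes. The median log2 fold change was -0.26 for the 10 genes and -0.03 for all genes tested with voom. Pdgfb, Kdr, Calcr and Sphk1, and among their partners Vegfc, Pgf, Sema7a, Spns2, Efna2 and Itgb3, are shown as downregulated by the study from the same libraries, so their direction here is not independent evidence. The study's threshold was a drop of more than 1 in log fold change (base not given) and a p under 0.05. Among these genes only Calcr (log2 fold change -1.55) and Itgb3 (-1.11) fell by more than 1 with voom here. With 3 libraries a group the smallest p of an exact two-sided permutation test is 0.10, which each of the 7 genes without overlap had. In bulk RNA, fewer osteoclasts in a culture and less RNA of a gene per osteoclast cannot be told apart.

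Markers of cell states moved with the groups. Of 10 osteoclast markers 9 were lower, and their summed level was 835 to 888 FPKM with DMSO against 504 to 523 FPKM with DASA-58. Of 10 macrophage markers 4 were higher and 2 lower, and their summed level was 16489 to 17327 FPKM and 17431 to 19744 FPKM. Of 7 tested neutrophil markers 4 were lower (S100a8, S100a9, Camp and Ngp), with a summed level of the list of 174 to 177 FPKM against 137 to 143 FPKM, while the defining Ly6g had a mean of 0.0382 FPKM with DMSO and was at 0 in the DASA-58 libraries. Of the list of megakaryocyte and erythroid markers, whose summed level was 398 to 441 FPKM against 564 to 633 FPKM, Pf4 and Ppbp were higher, whereas the platelet markers Gp9 and Gp1bb were near 0 (0.0401 and 0.0191 FPKM with DMSO). The part of these markers in the changes of the 10 genes was not tested. Stromal and osteoblast markers (11 of 12 listed, 0 of the 3 tested called by limma and 1 of 7 lower with voom, Col3a1) summed to 35.1 to 37.5 FPKM and 35.6 to 36.7 FPKM, of which Col1a1 and Col1a2 made up most, and Dcn, Lepr and Alpl had means of 0.0494, 0.0539 and 0.0538 FPKM with DMSO and 0.0244, 0.0205 and 0.129 FPKM with DASA-58. T and NK cell markers (6.63 to 7.90 and 6.35 to 7.35 FPKM, mostly Cd4; 1 of 3 lower with voom, Il2rb) and B cell markers (2.78 to 3.67 and 3.16 to 4.10 FPKM) overlapped between the groups.

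**Figure D1:**
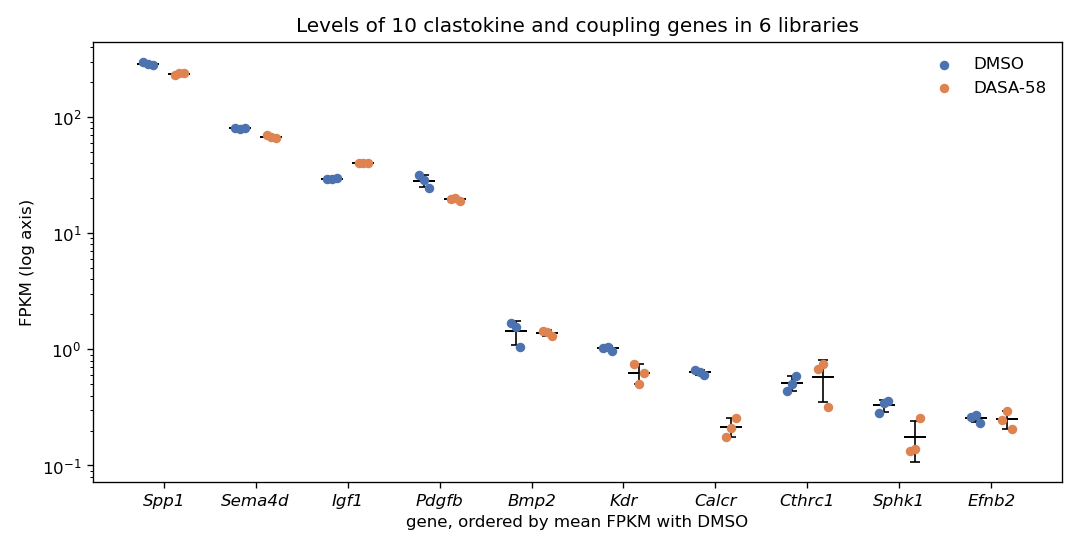
FPKM of the 10 genes (y axis, logarithmic) in each library, ordered by the mean with DMSO. Each point is 1 library, the horizontal line is the mean and the bar the SD of 3 libraries. Igf1 is the 1 gene whose DASA-58 points all lie above the DMSO points, and Calcr shows the widest gap downward.

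The levels spanned a wide range. With DMSO the order was Spp1 (mean 287 FPKM), Sema4d (80.1), Igf1 (29.3), Pdgfb (28.3), Bmp2 (1.43), Kdr (1.02), Calcr (0.637), Cthrc1 (0.512), Sphk1 (0.329) and Efnb2 (0.255). Of the neighbors in this order, the libraries of Igf1 and Pdgfb and those of Bmp2 and Kdr overlapped. With DASA-58 the first 6 ranks by mean held the same genes, although the libraries of Kdr, at rank 6, overlapped with those of Cthrc1 (0.582 FPKM). Igf1 (mean 40.1 FPKM) no longer overlapped with Pdgfb (19.5 FPKM), nor Bmp2 (1.38 FPKM) with Kdr (0.622 FPKM). Calcr went from rank 7 to rank 9 of 10, where its libraries (mean 0.214 FPKM) overlapped with those of Efnb2 (0.251) and Sphk1 (0.175).

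PDGF-B is the ligand that links preosteoclasts to vessels. Pdgfb (ENSMUSG00000000489, chromosome 15 from 79995874 to 80014977 in GRCm38) was at 31.4, 28.8 and 24.6 FPKM in DMSO replicates 1, 2 and 3 and at 19.7, 20.1 and 18.8 FPKM in DASA-58 replicates 1, 2 and 3. The DMSO libraries were the more variable ones, and the groups did not overlap. The mean fell from 28.3 ± 3.44 to 19.5 ± 0.651 FPKM (SD, n = 3 each), which is 69.1% of DMSO. On the log2 scale the change was -0.51 (standard error 0.079, limma, adjusted p = 0.0071). Without variance shrinkage the adjusted p was 0.085 (limma). Of the other PDGF genes, Pdgfa, which encodes the A chain, was also lower (7.09 ± 0.347 against 5.25 ± 0.157 FPKM, SD, n = 3 each; log2 fold change -0.37, adjusted p = 0.0033, limma), and Pdgfc, the only other one tested, was not called (log2 fold change 0.18, adjusted p = 0.14, limma). The receptors, through which these ligands act on mesenchymal cells, were low, with a mean of 0.633 FPKM for Pdgfrb and 0.049 FPKM for Pdgfra with DMSO. On recovered fragments the log2 fold change of Pdgfrb was -0.06 (adjusted p = 0.88, voom in limma).

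Kdr encodes VEGF receptor 2, best known from endothelium. Kdr (ENSMUSG00000062960, chromosome 5 from 75932827 to 75978458) had 170, 180 and 159 fragments in the DMSO libraries, or 1.03, 1.06 and 0.967 FPKM. In the DASA-58 libraries it had 126, 82 and 107 fragments, or 0.741, 0.499 and 0.625 FPKM. All DASA-58 libraries were below all DMSO libraries, and the mean went from 1.02 ± 0.0459 to 0.622 ± 0.121 FPKM (SD, n = 3 each). Fitted over all genes, the log2 fold change on fragments was -0.72 (95% interval -1.01 to -0.43, adjusted p = 4.9e-04, voom in limma). On log2(FPKM + 1) without the filter it was -0.32 with an adjusted p of 0.10 (limma). Markers of endothelium were near 0 in both groups: the 8 listed of 10, Kdr not being one of them, added up to 0.371 to 0.389 FPKM with DMSO against 0.355 to 0.493 FPKM with DASA-58, and Cdh5 and Pecam1 had a mean of 0.154 and 0.0957 FPKM with DMSO.

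The other genes of the VEGF system moved in both directions. Of 9 others in the list 6 were tested, and 3 were lower and 1 higher at an adjusted p under 0.05 (limma). Vegfc, a ligand best known for lymphatic vessels, had 9.50, 9.53 and 8.07 FPKM in the DMSO libraries against 4.49, 5.57 and 4.95 FPKM (log2 fold change -0.74, adjusted p = 0.0017, limma). Pgf, which encodes placental growth factor, went from 6.76 ± 0.425 to 3.73 ± 0.301 FPKM (SD, n = 3 each; log2 fold change -0.71, adjusted p = 7.4e-04, limma). The neuropilins, coreceptors for VEGFs and class 3 semaphorins, went apart. Nrp2 fell from 82.5 ± 3.86 to 59.8 ± 1.40 FPKM (log2 fold change -0.46, adjusted p = 5.5e-04, limma), whereas Nrp1 rose from 6.93 ± 0.518 to 9.55 ± 0.192 FPKM (log2 fold change 0.41, adjusted p = 0.0034, limma; SD, n = 3 each). Vegfa was at 4.24 ± 0.386 and 4.30 ± 0.363 FPKM (SD, n = 3 each), with a log2 fold change of 0.02 (adjusted p = 0.91, limma). Flt1, the gene of VEGF receptor 1, had 3 fragments in all DMSO libraries together and 6 in all DASA-58 libraries.

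Calcr, the receptor gene of the 10 that marks mature osteoclasts, had the lowest mean with DASA-58 relative to DMSO among the 10 genes. Calcr (ENSMUSG00000023964, chromosome 6 from 3685680 to 3764714) had 48, 47 and 43 fragments with DMSO, or 0.669, 0.637 and 0.604 FPKM. With DASA-58 it had 13, 15 and 19 fragments, or 0.176, 0.211 and 0.256 FPKM. All DASA-58 libraries lay far below all DMSO libraries, and the mean went from 0.637 ± 0.0325 to 0.214 ± 0.0399 FPKM (SD, n = 3 each). Summed over the 3 libraries of a group, 138 fragments stood against 47, a ratio of 0.337 (exact 95% interval 0.237 to 0.472, counting error only). The log2 fold change on fragments was -1.55 (95% interval -2.12 to -0.98, adjusted p = 1.9e-04, voom in limma), and it stayed between -1.69 and -1.42 when each library was left out in turn. On log2(FPKM + 1) without the filter it was -0.43 (adjusted p = 0.012, limma). The voom fit gave -0.94 for Ctsk and -0.91 for Acp5, the genes of cathepsin K and TRAP, and limma without the filter gave -0.93 and -0.90. The order of Calcr against both markers thus turned on log2(FPKM + 1), a scale that understates the change of low genes such as Calcr. The differences between Calcr and the 2 markers were not tested. Calcrl, which encodes the related receptor for CGRP and adrenomedullin, was far more abundant and was not called (16.9 ± 1.35 against 15.9 ± 0.339 FPKM, SD, n = 3 each; log2 fold change -0.08, adjusted p = 0.37, limma). Ramp1, the partner that turns Calcrl into a CGRP receptor, had a mean of 0.352 FPKM with DMSO against 0.319 FPKM with DASA-58.

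**Figure D2:**
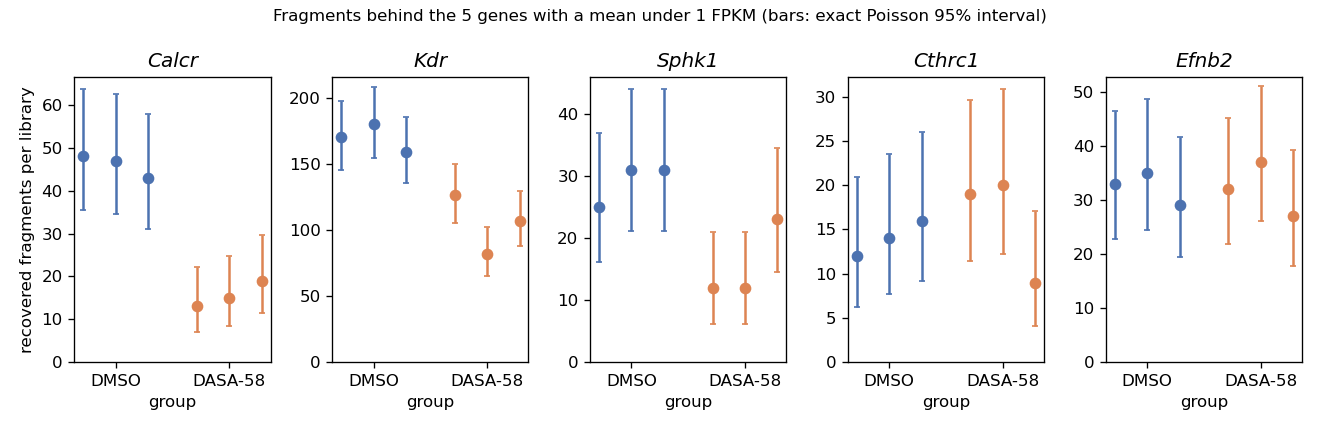
Recovered fragments per library (y axis, from 0) of the 5 genes with a mean under 1 FPKM, by group. Points are single libraries with the exact Poisson 95% interval of the count. For Calcr every interval with DASA-58 lies below every interval with DMSO, whereas for the other 4 genes some intervals of the groups overlap.

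Semaphorin 4D is an osteoclast surface protein that restrains osteoblasts. Sema4d (ENSMUSG00000021451, chromosome 13 from 51685529 to 51793747) was at 81.1, 78.2 and 81.0 FPKM in the DMSO libraries and at 69.4, 67.6 and 66.5 FPKM in the DASA-58 libraries. The groups did not overlap, but the change was the smallest among the members called, its mean with DASA-58 being 84.7% of DMSO. On the log2 scale the change was -0.24 (standard error 0.030, limma, adjusted p = 0.0027). Among 18 other semaphorin and plexin genes 10 were tested, and 3 were lower and 1 higher. Cd72, a further receptor of semaphorin 4D, fell from 39.2 ± 1.41 to 33.5 ± 0.660 FPKM (SD, n = 3 each; log2 fold change -0.22, adjusted p = 0.0078, limma). Plexin-B1, its receptor on osteoblasts, was hardly present, with 18 fragments over the DMSO libraries and 17 over the DASA-58 libraries. Plxnb2 was abundant and was not called (110.4 ± 1.31 against 108 ± 1.90 FPKM, SD, n = 3 each; adjusted p = 0.51, limma). Sema7a (log2 fold change -0.38, adjusted p = 0.040), Plxnd1 (-0.17, adjusted p = 0.027) and Plxnc1 (0.24, adjusted p = 0.018, all limma) were the other genes called, and the last encodes the receptor of semaphorin 7A. Each of these 3 calls was lost when certain libraries were left out and under other settings. The adjusted p of Sema7a was 0.11 without DMSO replicate 1, 0.074 without DMSO replicate 3, 0.11 without DASA-58 replicate 1 and 0.0996 without DASA-58 replicate 2 (limma). It was 0.053 with quantile normalization, 0.054 with centring, 0.052 without the variance trend and 0.14 without the filter or without variance shrinkage (limma). That of Plxnd1 was 0.089, 0.053 and 0.052 without DMSO replicates 1, 2 and 3 and 0.085 and 0.092 without DASA-58 replicates 2 and 3, and that of Plxnc1 was 0.059 without DASA-58 replicate 1 (limma). Quantile normalization gave Plxnd1 0.060, and leaving out the variance trend, the filter or variance shrinkage gave it 0.066, 0.076 and 0.11, while Plxnc1 had 0.057 without the filter and 0.076 without variance shrinkage (adjusted p, limma).

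Sphk1 makes sphingosine-1-phosphate, a lipid that recruits osteoblast precursors. Sphk1 (ENSMUSG00000061878, chromosome 11 from 116530925 to 116536674) had 25, 31 and 31 fragments with DMSO and 12, 12 and 23 with DASA-58, or 0.285, 0.344 and 0.357 FPKM against 0.133, 0.138 and 0.254 FPKM. DASA-58 replicate 3 lay close to DMSO replicate 1, although the groups did not overlap, and the means were 0.329 ± 0.0381 and 0.175 ± 0.0683 FPKM (SD, n = 3 each). Fitted over all genes, the log2 fold change on fragments was -0.94 (95% interval -1.58 to -0.30, adjusted p = 0.041, voom in limma). The call was lost without DMSO replicate 2 or 3 (adjusted p = 0.079 and 0.096) and without DASA-58 replicate 1 or 2 (adjusted p = 0.17 and 0.15, voom in limma), and on log2(FPKM + 1) without the filter (log2 fold change -0.18, adjusted p = 0.17, limma). An antisense gene, Gm29292, shares 192 of the 4774 exon bases of Sphk1, and the strand setting of the counting is not given in the sources used here.

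The second kinase and the export of the lipid could be measured better. Sphk2 went from 24.4 ± 0.382 to 21.5 ± 0.372 FPKM (SD, n = 3 each; log2 fold change -0.17, adjusted p = 0.013, limma). Spns2, a transporter that releases sphingosine-1-phosphate, went from 1.89 ± 0.189 to 1.15 ± 0.0826 FPKM (SD, n = 3 each; log2 fold change -0.43, adjusted p = 0.014, limma). The call of Sphk2 was lost without DMSO replicate 1 (adjusted p = 0.053) or DASA-58 replicate 1 (0.051) and that of Spns2 without DASA-58 replicate 3 (0.053, limma). S1pr1, the receptor that draws osteoclast precursors back to blood, rose without overlap, from 13.6, 13.6 and 12.5 FPKM to 17.0, 17.0 and 16.9 FPKM (log2 fold change 0.34, adjusted p = 0.0025, limma). S1pr2, which opposes it, had a log2 fold change of 0.06 (adjusted p = 0.39), and Sgpl1, the lyase that degrades the lipid, one of 0.07 (adjusted p = 0.13, limma).

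Cthrc1 is a secreted glycoprotein that stimulates osteoblasts. Cthrc1 (ENSMUSG00000054196, chromosome 15 from 39076932 to 39087121) had 12, 14 and 16 fragments with DMSO and 19, 20 and 9 with DASA-58. The DASA-58 libraries lay on both sides of the DMSO libraries, and the means were 0.512 ± 0.0765 and 0.582 ± 0.228 FPKM (SD, n = 3 each). The log2 fold change on fragments was 0.10 with a 95% interval of -0.65 to 0.85 (adjusted p = 0.90, voom in limma). This interval includes changes in both directions, and the smallest change that could be detected at this depth was not computed. Without DMSO replicate 1, DASA-58 replicate 1 or DASA-58 replicate 2 the value was -0.0012, -0.06 and -0.12. Of 20 other genes of Wnt ligands and receptors, 19 were listed and 3 had a mean of at least 1 FPKM (Lrp5, Lrp6 and Fzd7). None of the 3 was called (adjusted p = 0.28, 0.64 and 0.18, limma), and at an unadjusted p under 0.05 the number was also 0. On fragments, 0 of 10 were called with voom. Tpbg, a membrane protein to which Cthrc1 binds, had 19 fragments over the DMSO libraries and 34 over the DASA-58 libraries.

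Ephrin-B2 signals between osteoclasts and osteoblasts in both directions. Efnb2 (ENSMUSG00000001300, chromosome 8 from 8617434 to 8661242) had 33, 35 and 29 fragments with DMSO and 32, 37 and 27 with DASA-58. The libraries overlapped fully, with means of 0.255 ± 0.0202 and 0.251 ± 0.0446 FPKM (SD, n = 3 each). On the log2 scale the change on fragments was -0.04 with a 95% interval of -0.56 to 0.48 (adjusted p = 0.94, voom in limma). Its receptor gene Ephb4 had 39 fragments with DMSO and 47 with DASA-58 in all libraries together, and the fit gave -0.08 (adjusted p = 0.94, voom in limma). Efnb1 was at 2.25 ± 0.353 and 2.19 ± 0.140 FPKM (SD, n = 3 each; log2 fold change -0.02, adjusted p = 0.92, limma), and its sign turned under 2 of the 3 other scalings. Efna2, an ephrin of the A class described in osteoclasts, was the 1 of 2 tested genes of this family that was called. It fell from 3.24 ± 0.115 to 2.14 ± 0.189 FPKM (SD, n = 3 each; log2 fold change -0.44, adjusted p = 0.0057, limma).

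Osteopontin was the most abundant of the 10. Spp1 (ENSMUSG00000029304, chromosome 5 from 104435118 to 104441050) was at 295, 287 and 278 FPKM in the DMSO libraries and at 229, 238 and 239.8 FPKM in the DASA-58 libraries. The groups did not overlap, and the mean with DASA-58 was 82.3% of DMSO. Fitted over all genes, the log2 fold change was -0.28 (standard error 0.031, limma, adjusted p = 0.0017). The annotated gene Gm42793 on the same strand shares 309 of the 1648 exon bases of Spp1, so fragments of these bases could be split or left out by the counting. Its receptors include the integrin αvβ3, which anchors the osteoclast to bone. Itgb3 had 5.49, 5.33 and 5.04 FPKM in the DMSO libraries against 2.28, 2.39 and 2.71 FPKM (log2 fold change -0.86, adjusted p = 2.8e-04, limma). Itgav went from 15.1 ± 1.05 to 10.9 ± 0.280 FPKM (SD, n = 3 each; log2 fold change -0.43, adjusted p = 0.0024, limma). Of the 7 tested genes of this list other than Spp1, 3 were lower, Itga5 being the third (log2 fold change -0.21, adjusted p = 0.0069), and 1 was higher, Itgb5 (log2 fold change 0.17, adjusted p = 0.017, limma). The call of Itgb5 was lost without DASA-58 replicate 1 (adjusted p = 0.059) or 3 (0.053, limma). Cd44, a further receptor, was not called (log2 fold change -0.07, adjusted p = 0.29, limma).

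IGF-1, a growth factor for osteoblasts made by many cells including macrophages, was the 1 gene of the 10 that rose. Igf1 (ENSMUSG00000020053, chromosome 10 from 87858265 to 87937042) had 29.2, 29.0 and 29.8 FPKM in the DMSO libraries and 39.9, 40.6 and 39.9 FPKM in the DASA-58 libraries. The spread within each group was small, and the mean with DASA-58 was 137% of DMSO. The log2 fold change was 0.44 (standard error 0.028, limma, adjusted p = 1.4e-04), and it stayed between 0.43 and 0.45 when each library was left out in turn. Of the other IGF genes, 3 of 13 were tested, and all 3 were called. Igfbp4 (76.5 ± 3.86 against 87.4 ± 1.81 FPKM; log2 fold change 0.19, adjusted p = 0.022) and Igfbp7 (4.66 ± 0.254 against 6.53 ± 0.816 FPKM; log2 fold change 0.41, adjusted p = 0.017), which encode binding proteins, were higher (limma; SD, n = 3 each). Igf2r, which encodes a receptor that sorts lysosomal enzymes and clears IGF-2, was lower (34.2 ± 1.43 against 29.5 ± 0.503 FPKM, SD, n = 3 each; log2 fold change -0.21, adjusted p = 0.013, limma). Igfbp4 lost its call without DMSO replicate 1 (adjusted p = 0.065) and without DASA-58 replicates 1, 2 and 3 (0.051, 0.065 and 0.079), Igfbp7 without DMSO replicate 1 (0.061) and Igf2r without DASA-58 replicate 3 (0.054, limma). Igf1r, the signaling receptor, had 591 fragments with DMSO and 723 with DASA-58 in all libraries together (log2 fold change 0.28, adjusted p = 0.095, voom in limma). Its adjusted p was 0.035 without DMSO replicate 1 (voom in limma).

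BMP-2 is a bone-forming ligand of the TGF-β superfamily. Bmp2 (ENSMUSG00000027358, chromosome 2 from 133552159 to 133562885) was at 1.69, 1.55 and 1.05 FPKM in the DMSO libraries and at 1.45, 1.41 and 1.29 FPKM in the DASA-58 libraries. The DMSO libraries spread around the DASA-58 libraries, DMSO replicate 3 being the lowest with 68 fragments against 87 to 110 in the other 5. On the log2 scale the change was -0.02 (95% interval -0.27 to 0.24, limma, adjusted p = 0.93), and its sign turned with quantile normalization and with centring on the median. Of 26 other BMP genes in the list 12 were tested, and 1 was lower and 1 higher. Acvr1, a type I receptor, fell from 6.65 ± 0.206 to 5.33 ± 0.281 FPKM (SD, n = 3 each; log2 fold change -0.27, adjusted p = 0.013, limma). Id3, a target gene of BMP signaling, was at 20.7 ± 1.13 and 24.1 ± 1.47 FPKM (SD, n = 3 each; log2 fold change 0.21, adjusted p = 0.047, limma). Acvr1 lost its call without DASA-58 replicate 1 (adjusted p = 0.0501) or 3 (0.051), and without variance shrinkage (0.055, limma). Id3 lost it without DMSO replicates 1 and 3 (adjusted p = 0.13 and 0.095), without DASA-58 replicates 1, 2 and 3 (0.052, 0.12 and 0.11), with equal library totals (0.0503), and without the filter (0.14), the variance trend (0.083) or variance shrinkage (0.17, limma). Id1 had a log2 fold change of 0.19 (adjusted p = 0.43) and the receptor gene Bmpr2 one of 0.04 (adjusted p = 0.71, limma). Bmpr1a had 118 and 122 fragments in all DMSO and all DASA-58 libraries.

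**Figure D3:**
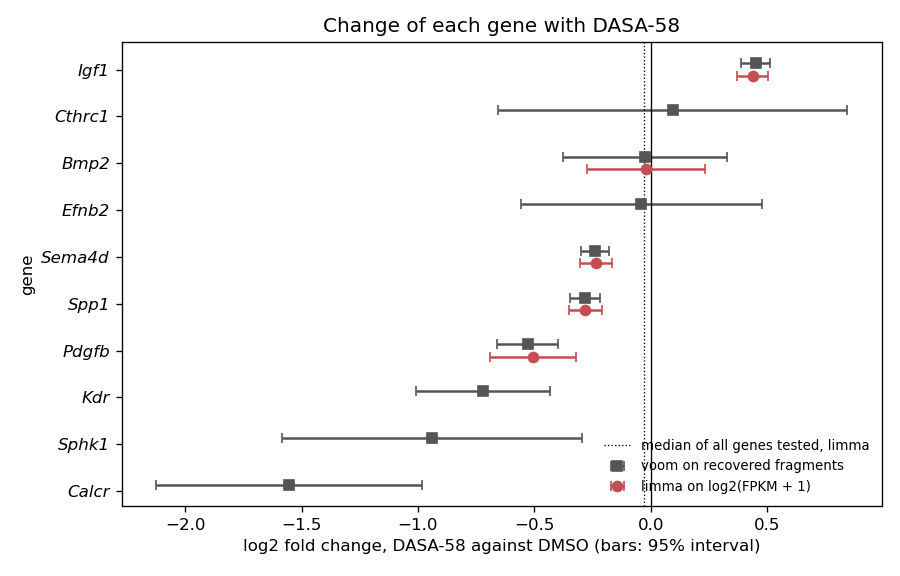
Log2 fold change of each gene with DASA-58 against DMSO (x axis) with its 95% interval. Circles are the limma fit on log2(FPKM + 1) for the 5 genes that passed the filter, squares the voom fit on recovered fragments for all 10, and the dotted line the median of all genes tested. The intervals of 6 genes lie below 0, that of Igf1 lies above 0, and those of Cthrc1, Bmp2 and Efnb2 include 0.

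The partner genes were also counted together. In the 11 lists of ligands, receptors and coupling factors 59 genes other than the 10 were tested, and 16 were lower (27.1%) and 8 higher (13.6%) by their adjusted p in limma, where 7.28% and 4.24% of all genes tested were. The lists were chosen with earlier results of these data known. The lower genes include Vegfc, Pgf, Sema7a, Spns2, Efna2 and Itgb3, which the study shows as downregulated from the same libraries. The shares are therefore not independent evidence about these families. The median log2 fold change of the 59 genes was -0.01, against -0.03 for all genes. Of the 59 genes 7 were in the list of other coupling factors, and 5 of these were not called in limma. With voom 3 of 11 genes of that list were lower and 2 higher. In the list of other coupling factors, Tnfrsf11a, which encodes the receptor RANK, was lower (23.5 ± 1.28 against 18.5 ± 0.355 FPKM; log2 fold change -0.32, adjusted p = 0.0039), and C3ar1, the receptor of complement C3a, was higher (137 ± 4.15 against 158 ± 4.13 FPKM, SD, n = 3 each; log2 fold change 0.20, adjusted p = 0.0087, limma).

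**Figure D4:**
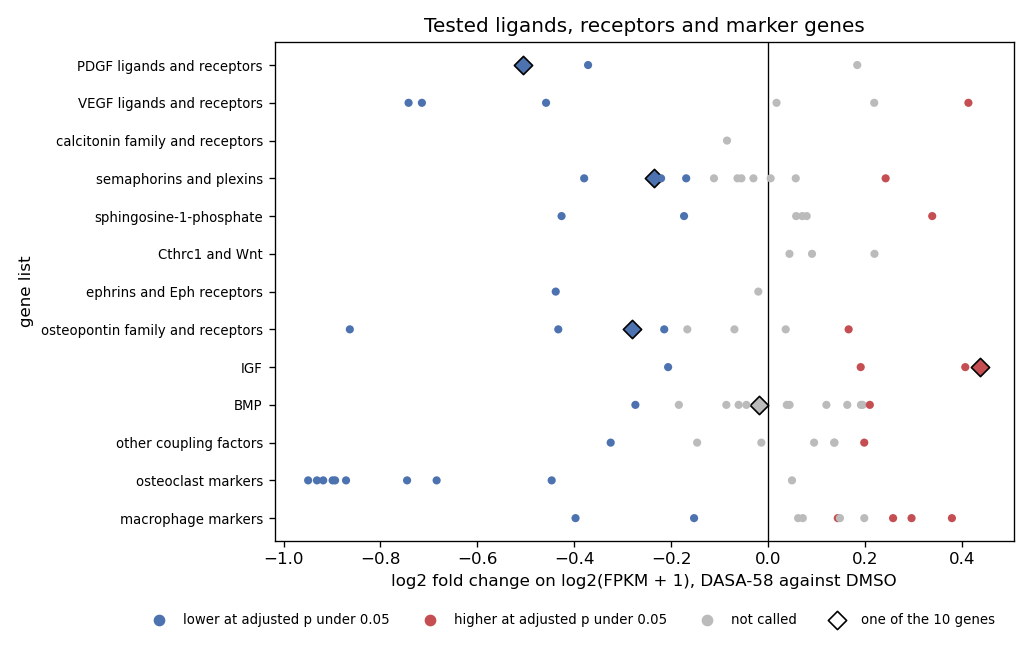
Log2 fold change with DASA-58 (x axis) of each tested gene in the lists of partners, of osteoclast markers and of macrophage markers, colored by its call in limma. Diamonds are the members among the 10 genes. The osteoclast markers reach from -0.95 to 0.05, with 9 of 10 lower, and the VEGF list holds both lower and higher genes.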

How the data were processed

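RNA-seq was performed on 6 libraries (3 DMSO, 3 DASA-58), and the deposited table held FPKM values, fragments scaled by gene length and library total, which the authors computed for 23504 genes. The submitters' processing notes name HISAT2 2.1.0, HTSeq 0.6.0 and the build mm8, without a role or order. Gene lengths of GENCODE M21 (GRCm38) nevertheless turned the FPKM of 21368 genes (90.9%) into whole fragments. For a further 1920 genes (Pdgfb, Sema4d and Cthrc1 among them) a length was fitted to the FPKM steps with a tolerance of 0.02 fragments, and 216 had none. Symbols came from that annotation (23455 genes matched).

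Groups followed the sample labels. FPKM values were compared with limma 3.58.1 (R 4.3.3; lmFit, eBayes with a trend) as log2(FPKM + 1) for 10965 genes whose mean reached 1 FPKM, without covariates, and p-values were adjusted by Benjamini-Hochberg over all genes tested. Recovered fragments were compared with voom in limma for 13218 genes with a mean of at least 10 fragments. Any size of change was called at an adjusted p under 0.05. Single genes were also compared by exact two-sided permutation. The fits were tested on simulated data. Libraries were not paired by replicate number in these fits, because the labels do not say whether libraries of the same number belong together.

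The members and lists were chosen with earlier results of these data known. The genes named were the 10 members, up to 4 called genes of each partner list with the smallest p, and the direct receptors or partners of a member. Pdgfc, Lrp5, Lrp6, Fzd7 and single marker genes were named after their values were seen. Other scalings, pseudocounts, filters and variance models, a replicate block and leaving out each library were tried. Intervals cover counting error only where this is stated. Python 3.11.15 with pandas 2.3.3, NumPy 2.4.6, SciPy 1.17.1 and matplotlib 3.10.9 was used for tables and figures.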

Additional observations from a re-analysis of the deposited data

How the results depend on the processing

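With DASA-58, the direction and the call of Sema4d, Spp1 and Igf1 held under every alternative tried, and the call of Pdgfb was lost only without variance shrinkage (adjusted p = 0.085, limma). For the partner genes named, 56 values kept their direction but lost the call, 17 turned sign, 1 gained a call and 548 did neither. Beside the losses given with each gene, calls were lost without variance shrinkage for C3ar1 (adjusted p = 0.060), Cd72 (0.051), Igf2r (0.068), Igfbp4 (0.11), Igfbp7 (0.11), Itgb5 (0.060) and Spns2 (0.052), without the filter for Igfbp4 (0.075), Igfbp7 (0.076) and Spns2 (0.057), and without the variance trend for Igfbp4 (0.059, all limma). In limma 5 of the 10 genes were tested and 3 were lower, where 7.28% of all genes tested were. With voom weights on recovered fragments all 10 were tested and 6 were lower, where 9.99% of all genes tested were. Over the 10965 genes tested in limma, 798 were lower and 465 higher. Lower genes numbered 372 without the filter, 504 with centring on the median, 515 without a trend in the variance, 314 without variance shrinkage, 1321 with voom and 387 to 603 when each library was left out. Higher genes numbered 257 without the filter, 227 without variance shrinkage, 737 with voom and 272 to 375 when each library was left out. The libraries whose omission moved the counts most were DMSO replicate 1 (387 lower, 282 higher), DASA-58 replicate 1 (413 and 272), replicate 2 (467 and 296) and replicate 3 (400 and 276). The split into lower and higher genes was 588 and 600 with quantile normalization, 504 and 597 with centring, and 958 and 386 with equal library totals. The cause of these differences was not tested, except that fewer libraries or more genes enter the fit where these were changed.

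Signs turned for genes near 0. With quantile normalization and centring Bmp2 had log2 fold changes of 0.0024 and 0.0074, and Efnb1 of 0.012 and 0.0068. Without the filter on log2(FPKM + 1) Ephb4 had 0.032 and Ramp1 -0.027. Leaving out each library gave -0.14 to 0.058 for Bmp2, -0.076 to 0.11 for Bmpr1a, -0.12 to 0.47 for Cthrc1, -0.11 to 0.040 for Efnb1, -0.17 to 0.087 for Efnb2, -0.64 to 0.69 for Ephb4, -0.17 to 0.0020 for Pdgfrb, -0.51 to 0.34 for Ramp1 and -0.044 to 0.076 for Vegfa. With the replicate block 3 of the 5 members tested in limma were lower and 1 higher, as without it. Over the 10965 genes tested 579 were lower and 378 higher, and of the named genes Sema7a lost its call (adjusted p = 0.080, limma). Deviations of same-numbered libraries correlated at -0.015, 0.016 and -0.016, and no library correlated best with its own number. With 3 libraries a group these values cannot show whether the cultures were paired. Depth limits Cthrc1, Efnb2 and Sphk1, with 9 to 37 fragments per library, and also Calcr, with 13, 15 and 19 fragments in the DASA-58 libraries.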
